A study of Homo sapiens with 12 samples.

Results

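Transcripts of 9 cytokine genes were followed in a human monocytic leukaemia line that carried or lacked an edited IRAK4 gene and had received the drug CC-885 or its solvent. The genes were IL1A, IL1B, IL1RN, IL18, IL6, TNF, LIF, IL23A and EBI3, found by their symbols, and all 9 were among the 30017 symbols of the count table. THP-1 cells, an established acute myeloid leukaemia line, had been electroporated with Cas9 with or without an IRAK4 guide RNA and grown from single cells. The 4 groups, each of 3 libraries, were IRAK4 knockout (KO) cells given 50 nM CC-885 for 12 h, wild-type (WT) cells given the same, KO cells given DMSO for 12 h, and WT cells given DMSO. All groups, WT included, descended from cells that had received Cas9. The labels do not give the number of clones behind each genotype, so genotype and clone cannot be told apart. Nothing says that the 3 libraries of a group came from separate cultures, so p-values measure only the spread between these libraries.

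Interleukin-1α (IL1A) and interleukin-1β (IL1B) bind the receptor IL1R1, and the antagonist made by IL1RN occupies that receptor without signalling. IL18 encodes a relative of IL-1β that is likewise made as a precursor and cut by caspase-1. IRAK4 is the kinase that carries signals of the IL-1, IL-18 and Toll-like receptors, and in monocytes these signals raise transcription of IL1B, TNF and IL6. TNF acts on its own receptors, IL6 and LIF signal through the shared subunit gp130, and IL23A and EBI3 encode subunits of the IL-12 family that need a partner chain to be secreted. CC-885 binds cereblon, a ubiquitin ligase receptor, and marks GSPT1, a translation termination factor, for degradation. Many cytokine mRNAs carry repeats of the pentamer ATTTA in their 3′ untranslated region (UTR), the element through which ZFP36 (tristetraprolin) and related proteins shorten mRNA life.

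That element separated the 9 genes into those with 4 or more copies and those with 0, and its densest 30 bases are shown for the 6 genes that carry it, because the response to CC-885 is set against it below. Windows were read 5′ to 3′ from 1 GENCODE transcript a gene (build GRCh38), with the pentamers in capitals.
TNF 3′ UTR window: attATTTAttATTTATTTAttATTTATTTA
IL1B 3′ UTR window: tgagcaaccgcttccctATTTATTTATTTA
IL1A 3′ UTR window: tATTTAtatatgtATTTAtaaatatATTTA
IL6 3′ UTR window: ttttaattatttttaATTTAttaatATTTA
LIF 3′ UTR window: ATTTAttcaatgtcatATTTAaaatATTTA
IL23A 3′ UTR window: cagtttggggaggattATTTAttgtATTTA
These windows begin 462, 329, 614, 124, 3100 and 231 bases after the stop codon in the order shown. The whole 3′ UTR held 9 pentamers in 799 bases for TNF, 6 in 610 bases for IL1B, 5 in 1152 bases for IL1A, 6 in 429 bases for IL6, 7 in 3204 bases for LIF and 4 in 306 bases for IL23A. The UTRs of IL1RN, IL18 and EBI3 held 0. Of 18966 genes with an annotated 3′ UTR, 64.45% had at least 1 pentamer and the median was 1. Per kilobase of UTR, 0.68% of genes had as many as IL6, 0.81% as many as IL23A, 1.13% as many as TNF, 1.68% as many as IL1B and 13.3% as many as IL1A, whereas 37.8% had as many as LIF, whose UTR is long.

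IL1A, IL1B and IL1RN lie in a cluster on chromosome 2, at chr2:112773915-112784590 on the minus strand, chr2:112829751-112836903 on the minus strand and chr2:113107214-113134016 on the plus strand (GRCh38, GENCODE). TNF lies at chr6:31575567-31578336 and IL6 at chr7:22725884-22732002, both on the plus strand. IL18 lies at chr11:112143251-112164117 and LIF at chr22:30240447-30246851, both on the minus strand. IL23A lies at chr12:56334174-56340410 and EBI3 at chr19:4229498-4237531, both on the plus strand. The counts are reads over whole exons. Genes on the opposite strand overlap the spans, introns included, of IL18 (AP002884.3), IL6 (AC073072.1 and STEAP1B) and LIF (LIF-AS1 and AC004264.1). The strand setting of the counting was not given in the sources used here. Reads of those partners and of these 3 genes therefore cannot be told apart where exons overlap, and overlap of exons was not examined.

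Totals were 46903984 to 56675539 counts per library. IRAK4 itself averaged 30.7 ± 1.05 CPM (counts scaled to library size with TMM factors) in KO CC-885, 72.8 ± 9.53 CPM in WT CC-885, 8.26 ± 0.847 CPM in KO DMSO and 52.2 ± 1.57 CPM in WT DMSO (SD, n = 3 each). All 10 monocyte markers had counts in every group, with CD14 between 1.20 and 3.82 CPM as group means. Their summed level was 1522 to 1556 CPM in KO CC-885, 1831 to 1990 CPM in WT CC-885, 3294 to 4191 CPM in KO DMSO and 2867 to 2908 CPM in WT DMSO. In bulk samples fewer cells of a type and less RNA per cell cannot be told apart, and the part of this shift in the cytokine values was not tested. Markers of T and NK cells summed to at most 20.44 CPM, nearly all of it NKG7, with CD3E and CD3G at 0. Markers of B cells summed to at most 8.642 CPM, with MS4A1 at 0 and PAX5 the largest part in WT cells. PAX5 averaged 1.14 CPM in KO CC-885, 5.97 CPM in WT CC-885, 0.458 CPM in KO DMSO and 6.14 CPM in WT DMSO. Those of epithelial, stromal and endothelial cells summed to at most 445.8 CPM, nearly all of it PECAM1, with COL1A2 and CDH5 at 0. WT CC-885 replicate 3 stood apart from its group, since the chi-square statistic over genes, divided by its degrees of freedom, was 77.4 and 63.1 when it was set against the other libraries of its group and 5.14 between those, and 4.13 to 21.2 between pairs in the other groups. Its library name begins with 52 and those of WT CC-885 replicates 1 and 2 with 51. Names beginning with 51 were unevenly spread, with 3 in KO CC-885, 2 in WT CC-885, 2 in KO DMSO and 1 in WT DMSO. The meaning of the prefix is not given, so it is partly confounded with group. Without WT CC-885 replicate 3 no call on the cytokine genes changed, and values without it are given below for IL1A, TNF and EBI3.

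Of the 9 genes, 8 passed the filter on low counts and IL6 did not. IL1A passed only through the CC-885 groups, where it was higher. EBI3 had at least 10 counts in every library of the KO groups alone. It also had 11 counts each in WT DMSO replicates 1 and 3 and in WT CC-885 replicates 2 and 3. LIF had at least 10 counts in each library of every group but KO DMSO, which held 5, 3 and 9 counts. CC-885 was followed by higher transcripts of 6 genes in KO cells and of 6 in WT cells, and by a lower level of 1 gene, IL1RN, in KO cells. Both counts of 6 include IL1A, which the filter kept through the groups where it is high. In the same comparisons 38.9% of the 16010 genes tested were called higher and 40% lower in KO cells, and 35.7% were called higher and 36.6% lower in WT cells (edgeR quasi-likelihood test, adjusted p under 0.05 over all genes). The median change of all genes was -0.03 in both genotypes on the log2 scale.

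**Figure D1:**
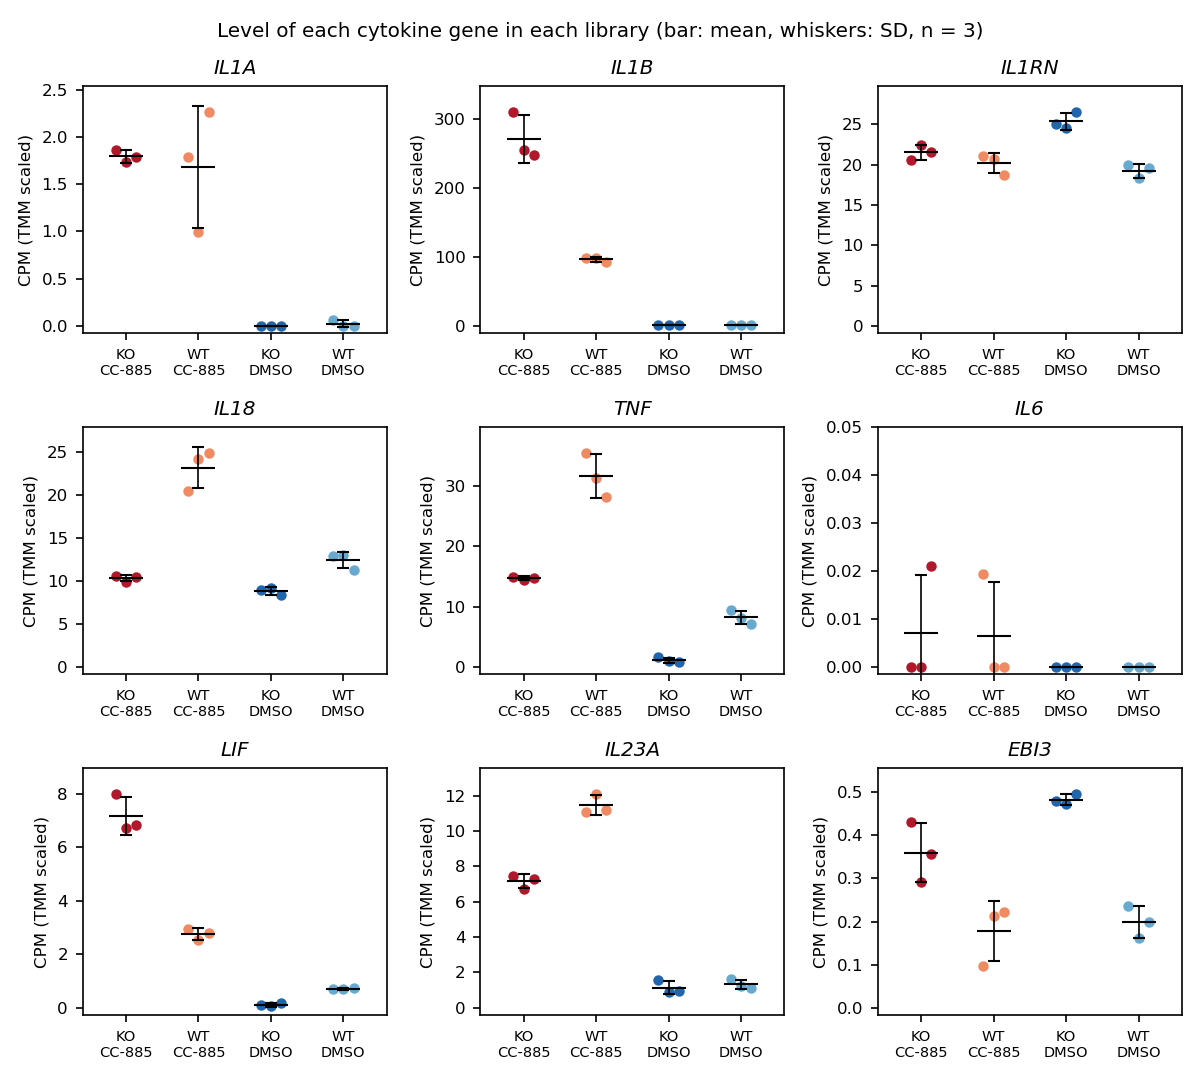
Level of each of the 9 cytokine genes in CPM (vertical axis, scaled separately for each gene and starting at 0) in every library of the 4 groups, with the mean and SD of 3 libraries. IL1B averaged 271 CPM in KO CC-885 and 96.6 CPM in WT CC-885 with every DMSO library at or under 1.09 CPM, while TNF, IL18 and IL23A were higher in WT CC-885 than in KO CC-885.

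IL1B had 311, 255 and 248 CPM in the KO CC-885 libraries, 98.9, 98.6 and 92.2 CPM in WT CC-885, 0.821, 0.892 and 1.09 CPM in KO DMSO and 0.620, 0.785 and 0.523 CPM in WT DMSO. The 4 groups did not overlap. CC-885 was followed by a rise of 8.18 ± 0.13 in KO cells (290-fold, adjusted p = 1.18e-16) and of 7.23 ± 0.14 in WT cells (150.5-fold, adjusted p = 7.28e-16) on the log2 scale. Under CC-885 the KO level was 2.81-fold the WT level (log2 change 1.49 ± 0.09, adjusted p = 1.21e-09). The response itself was larger in KO cells by 0.94 ± 0.22 (interaction, adjusted p = 0.00372), a call not kept with only the libraries whose names begin with 51, where it was 0.99 (adjusted p = 0.065) with 1 library left in WT DMSO. Under DMSO KO cells were higher by 0.54 ± 0.20 (adjusted p = 0.0318) at levels near 1 CPM, and 7 of 23 alternatives lost that call. It was 0.52 without WT DMSO replicate 1, 0.40 without WT DMSO replicate 3, 0.58 without KO DMSO replicate 2 and 0.42 without KO DMSO replicate 3, with adjusted p between 0.0518 and 0.144.

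IL1A, the other agonist of IL1R1, had 1.87, 1.73 and 1.79 CPM in KO CC-885, 1.79, 0.992 and 2.27 CPM in WT CC-885, 0 in all 3 KO DMSO libraries and 0.0641, 0 and 0 CPM in WT DMSO. The CC-885 groups lay above both DMSO groups and overlapped each other. In counts this was 272 reads in KO CC-885 and 0 in KO DMSO, which makes KO CC-885 at least 94.4-fold higher when the empty group is given 3 counts in all (adjusted p = 1.1e-07). In WT cells 255 reads stood against 3, all 3 in 1 library, a ratio of 84.7 with an exact 95% interval of 28.7 to 413.5 that covers counting error only (adjusted p = 4.11e-07). Without that library, WT DMSO replicate 1, the WT DMSO group held 0 counts. IL1A passed the filter only through the CC-885 groups, so the p-values of both rises are no support by themselves. Between the genotypes under CC-885 no difference passed the test (0.10 ± 0.30, adjusted p = 0.8), and without WT CC-885 replicate 2 the sign turned to -0.17. Without WT CC-885 replicate 3 it was 0.37. So IL1B differed between KO and WT cells under CC-885 where IL1A, its neighbour in the cluster, gave no call, and the difference between those 2 results was not tested.

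IL1RN, the receptor antagonist, had 20.5, 22.4 and 21.6 CPM in KO CC-885, 21.0, 20.7 and 18.8 CPM in WT CC-885, 25.1, 24.5 and 26.6 CPM in KO DMSO and 19.9, 18.3 and 19.6 CPM in WT DMSO. KO DMSO lay above all other libraries, and WT CC-885 overlapped both KO CC-885 and WT DMSO. Under DMSO KO cells were higher by 0.40 ± 0.07 on the log2 scale (adjusted p = 0.000344). CC-885 was followed by a fall in KO cells (-0.24 ± 0.07, adjusted p = 0.00755) and by no call in WT cells (0.07 ± 0.07, adjusted p = 0.432), and under CC-885 the genotypes gave no call (0.09 ± 0.07, adjusted p = 0.294). The interaction of -0.31 ± 0.10 (adjusted p = 0.0335) lost its call under 9 of 22 alternatives. Among these were the fits without WT DMSO replicate 2 (-0.27) or 3 (-0.32), WT CC-885 replicate 1 (-0.27) or 2 (-0.28), KO DMSO replicate 3 (-0.27) and KO CC-885 replicate 1 (-0.27) or 3 (-0.31).

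Set against each other within a library, the antagonist outnumbered IL1B under DMSO and was outnumbered under CC-885. The ratio of IL1RN counts to IL1B counts was 0.0661, 0.0880 and 0.0873 in KO CC-885, 0.213, 0.210 and 0.203 in WT CC-885, 30.6, 27.5 and 24.3 in KO DMSO and 32.1, 23.3 and 37.5 in WT DMSO. The CC-885 groups overlapped neither each other nor the DMSO groups, while the DMSO groups overlapped each other. On the log2 scale the ratio differed by -8.42 between KO CC-885 and KO DMSO, by -7.18 between WT CC-885 and WT DMSO and by -1.39 between the genotypes under CC-885. Each of these 3 gave p = 0.1 in a two-sided exact permutation test, the smallest p that 3 libraries against 3 allow, and under DMSO the genotypes differed by -0.15 (exact permutation p = 0.5), which was 8e-04 without WT DMSO replicate 3. The ratio of IL1RN to IL1A under CC-885 differed by -0.08 between the genotypes (exact permutation p = 0.9), and it has no value in DMSO libraries where IL1A is at 0.

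IL18 had 10.6, 9.88 and 10.50 CPM in KO CC-885, 20.4, 24.2 and 24.9 CPM in WT CC-885, 8.95, 9.18 and 8.36 CPM in KO DMSO and 12.9, 12.99 and 11.3 CPM in WT DMSO. No groups overlapped, and every KO library lay below every WT library. CC-885 was followed by a rise of 0.90 ± 0.09 in WT cells (1.87-fold, adjusted p = 1.95e-07). The KO response was 0.23 ± 0.09 (adjusted p = 0.0384), and 10 of 23 alternatives lost it, among them upper-quartile scaling (0.08), under which the median of all genes moved by -0.15. That call was also lost without KO DMSO replicate 1 (0.24) or 3 (0.19) and without KO CC-885 replicate 1 (0.21) or 3 (0.21). KO cells were lower than WT cells under CC-885 (log2 change -1.17 ± 0.09, adjusted p = 3.14e-08) and under DMSO (-0.49 ± 0.09, adjusted p = 0.000481). The interaction of -0.68 ± 0.13 (adjusted p = 0.000949) kept its call in all 22 alternatives.

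TNF had 15.0, 14.3 and 14.8 CPM in KO CC-885, 35.6, 31.4 and 28.2 CPM in WT CC-885, 1.56, 0.892 and 0.755 CPM in KO DMSO and 9.38, 8.14 and 7.14 CPM in WT DMSO. The 4 groups did not overlap, and the KO group was the lower one under both treatments. Under DMSO KO cells held 0.130 times the WT level (log2 change -2.95 ± 0.19, adjusted p = 1.11e-08), and under CC-885 0.464 times (-1.11 ± 0.15, adjusted p = 1.46e-05). CC-885 was followed by a rise of 3.79 ± 0.19 in KO cells (13.8-fold, adjusted p = 6.68e-11) and of 1.95 ± 0.15 in WT cells (3.86-fold, adjusted p = 2.08e-08). The response was thus larger in KO cells by 1.84 ± 0.24 (interaction, adjusted p = 6.18e-05), while its level stayed below that of WT cells. Without WT CC-885 replicate 3 the log2 change of KO against WT cells under CC-885 was -1.18, and the interaction was 1.76.

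IL6 was close to undetected. The table holds 1 count in KO CC-885 replicate 3, 1 count in WT CC-885 replicate 1 and 0 in the other 10 libraries, under a floor of 3 counts that corresponds to 0.05245 to 0.06413 CPM. No fold is given, and a difference was not detectable at this depth. IL6 has 6 pentamers, as IL1B has, and its receptor chain IL6R and the shared subunit gp130 (IL6ST) were present in these cells, with IL6R at 243 CPM or more and IL6ST at 33.9 CPM or more as group means.

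LIF, a gp130 cytokine, had 8.001, 6.70 and 6.85 CPM in KO CC-885, 2.95, 2.53 and 2.81 CPM in WT CC-885, 0.1001, 0.0525 and 0.179 CPM in KO DMSO and 0.705, 0.685 and 0.758 CPM in WT DMSO. The groups did not overlap, and KO cells were the lower genotype under DMSO and the higher one under CC-885. Under DMSO the difference was -2.70 ± 0.30 (adjusted p = 1.77e-06) and under CC-885 it was 1.38 ± 0.15 (adjusted p = 8.48e-07) on the log2 scale. CC-885 was followed by a rise of 6.02 ± 0.23 in KO cells (65-fold, adjusted p = 7.35e-13) and of 1.94 ± 0.18 in WT cells (3.84-fold, adjusted p = 6.37e-08). The interaction of 4.08 ± 0.33 (adjusted p = 6.13e-07) was the largest among the 7 cytokine genes that have one, and it was between 3.72 and 4.60 in the 22 alternatives. The KO DMSO value rests on 17 reads in all.

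IL23A, the p19 subunit of interleukin-23, had 7.44, 6.70 and 7.31 CPM in KO CC-885, 11.1, 12.1 and 11.2 CPM in WT CC-885, 1.601, 0.909 and 0.933 CPM in KO DMSO and 1.62, 1.25 and 1.10 CPM in WT DMSO. The CC-885 groups overlapped no other group, while the DMSO groups overlapped each other. The rise was 2.65 ± 0.18 in KO cells (6.26-fold, adjusted p = 9.24e-10) and 3.12 ± 0.18 in WT cells (8.69-fold, adjusted p = 1.54e-10). Under CC-885 KO cells were lower (-0.68 ± 0.15, adjusted p = 0.00107). The interaction did not pass the test (-0.47 ± 0.25, adjusted p = 0.167), nor did the genotypes under DMSO (-0.21 ± 0.21, adjusted p = 0.429), except without KO DMSO replicate 1 (-0.51, adjusted p = 0.032). Its partner chain IL12B, shared with interleukin-12, was near the floor, with 27 reads in KO CC-885, 43 in WT CC-885, 1 in KO DMSO and 4 in WT DMSO over the 3 libraries of each group.

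EBI3, the partner subunit of interleukin-27 and interleukin-35, had 0.431, 0.292 and 0.357 CPM in KO CC-885, 0.0970, 0.214 and 0.223 CPM in WT CC-885, 0.480, 0.472 and 0.497 CPM in KO DMSO and 0.235, 0.161 and 0.198 CPM in WT DMSO. Every KO library lay above every WT library, at 27 to 76 reads a group. KO cells were higher by 1.28 ± 0.32 under DMSO (adjusted p = 0.00391) and by 1.02 ± 0.34 under CC-885 (adjusted p = 0.0188). The call under CC-885 was lost without WT CC-885 replicate 1 (0.72, adjusted p = 0.101) or KO CC-885 replicate 1 (0.86, adjusted p = 0.0804). CC-885 gave no call in KO cells (-0.41 ± 0.29, adjusted p = 0.208), although those groups did not overlap, nor in WT cells (-0.15 ± 0.38, adjusted p = 0.728), where the sign turned to 0.14 without WT CC-885 replicate 1. Without WT CC-885 replicate 3, KO cells were higher under CC-885 by 1.21 (adjusted p = 0.0182), and the response in WT cells was -0.34 (adjusted p = 0.516).

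**Figure D2:**
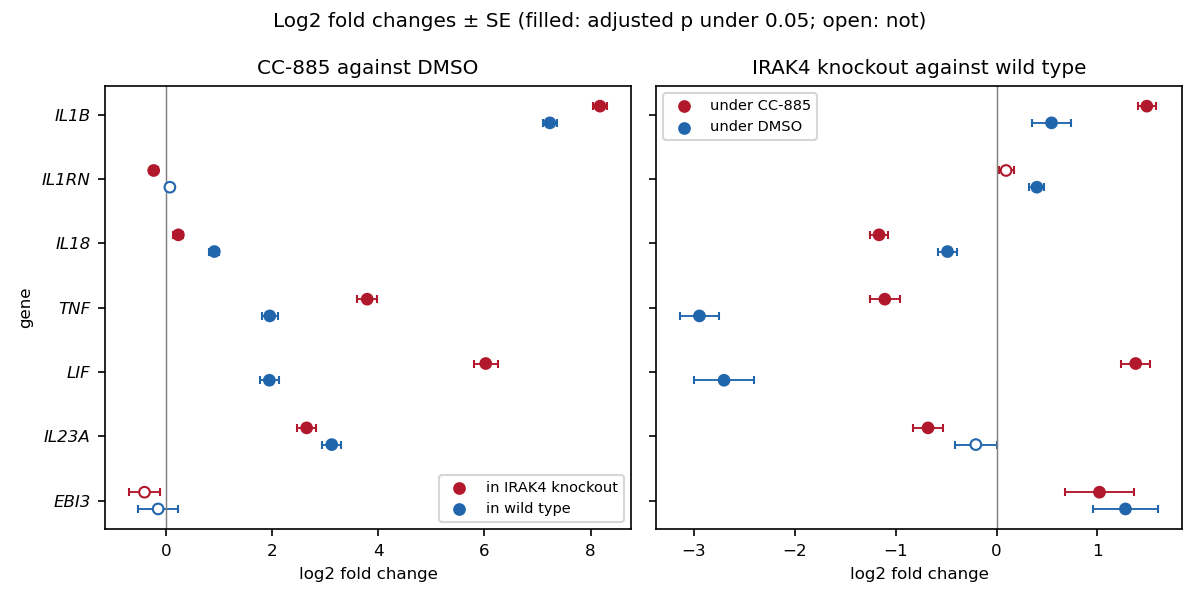
Log2 fold changes ± SE (horizontal axis) of the 7 genes with counts in every group, for CC-885 against DMSO in each genotype (left) and for IRAK4 KO against WT under each treatment (right), with filled points at an adjusted p under 0.05. LIF lies at 1.38 under CC-885 and at -2.70 under DMSO on the right, and TNF is below 0 under both.

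Between the genotypes, 3 of the 8 genes tested were called higher in KO cells under CC-885 (IL1B, LIF and EBI3) and 3 lower (IL18, TNF and IL23A), against 27.8% and 30.8% of all genes. EBI3 had 27 to 76 reads a group, so its calls as higher in KO cells, here and under DMSO, are weak support by themselves. Under DMSO 3 of the 7 genes with a fold were called higher (IL1B, IL1RN and EBI3) and 3 lower (IL18, TNF and LIF), against 21.3% and 28.4%. IL1B, IL18, TNF and EBI3 were called in the same direction under both treatments, and LIF in opposite directions. Of all calls under DMSO 42.9% were higher with TMM scaling and 60.7% with upper-quartile factors, under which the median of all genes moved by 0.12. In the interaction 3 genes were called higher (IL1B, TNF and LIF) and 2 lower (IL1RN and IL18), against 17.9% and 16.8% of all genes. Of all interaction calls 51.6% were higher with TMM scaling and 39.7% with upper-quartile factors.

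Levels of different genes were set side by side per kilobase of exon, with all annotated exons of a gene joined. That length was 3256 bases for IL1RN, 3096 for IL1B and 1676 for TNF. It can exceed the length of a single mRNA, and the order of genes under another choice of length was not tested. In KO CC-885, IL1B stood at 87.6 ± 11.2 CPM per kb, TNF at 8.78 ± 0.198, IL1RN at 6.61 ± 0.293, IL23A at 6.03 ± 0.333, IL18 at 3.93 ± 0.150, LIF at 1.81 ± 0.179, IL1A at 0.845 ± 0.0315 and EBI3 at 0.280 ± 0.0539 CPM per kb (SD, n = 3). Among these neighbours, the ranges of mean ± SD overlapped for IL1RN and IL23A. In WT CC-885 the order began with IL1B at 31.2 ± 1.22 and TNF at 18.9 ± 2.20 CPM per kb, followed by IL23A and IL18 with overlapping ranges, IL1RN, then IL1A and LIF with overlapping ranges, and EBI3. In KO DMSO IL1RN led at 7.80 ± 0.324 CPM per kb before IL18, then IL23A, TNF and EBI3 with overlapping spreads, IL1B, LIF and IL1A. In WT DMSO IL1RN led at 5.92 ± 0.264 CPM per kb, before TNF and IL18 with overlapping ranges, IL23A, and IL1B, LIF and EBI3 with overlapping spreads. IL1B was thus 1st among the 9 genes in both CC-885 groups, but 6th in KO DMSO and 5th in WT DMSO.

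The response to CC-885 was set against the pentamers of the 3′ UTR. All 5 tested genes with 4 or more pentamers (IL1A, IL1B, TNF, LIF and IL23A) rose in both genotypes, by at least 1.94 on the log2 scale. Of the genes with 0 pentamers, IL18 changed by 0.23 in KO and 0.90 in WT cells, IL1RN by -0.24 in KO and 0.07 in WT cells, and EBI3 by -0.41 in KO and -0.15 in WT cells. IL6 was not tested, and IL1A passed the filter through the CC-885 groups alone, so this count describes the 8 tested genes and is no support by itself. Among the 5, the number of pentamers did not follow the size of the rise, since TNF has 9 and rose by 3.79 in KO and 1.95 in WT cells. Over all 12846 genes tested that have an annotated 3′ UTR, the median change was 0.21 in KO and 0.18 in WT cells for the 4414 genes with 4 or more pentamers, and -0.27 in KO and -0.23 in WT cells for the 3919 genes with 0. The first class has a median UTR of 2795 bases and the second of 353, and the part of UTR length in that difference was not tested.

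**Figure D3:**
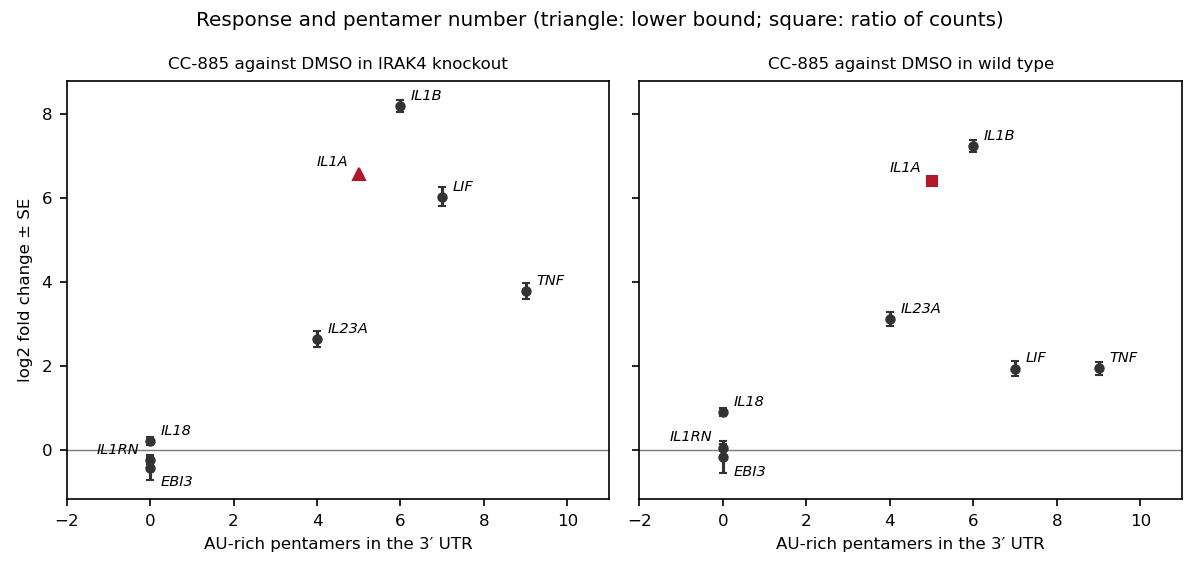
Log2 change under CC-885 (vertical axis, ± SE) against the number of AU-rich pentamers in the 3′ UTR (horizontal axis) for the 8 tested cytokine genes in KO (left) and WT cells (right), with IL1A as a lower bound in KO and as a ratio of counts in WT. The 3 genes with 0 pentamers lie between -0.41 and 0.90, and the 5 genes with 4 to 9 lie at 1.94 or above.

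Of the 15 listed factors that bind such elements or act in cytokine mRNA decay and stability, 8 were called higher and 5 lower under CC-885 in KO cells, with the same counts in WT cells, beside 38.9% and 40% of all genes in KO and 35.7% and 36.6% in WT cells. Their median change was 0.36 in KO and 0.29 in WT cells, beside -0.03 for all genes in each. ZFP36, which binds the pentamer and recruits deadenylases, averaged 1425 ± 32.6 CPM in KO CC-885, 1129 ± 200 CPM in WT CC-885, 67.1 ± 5.82 CPM in KO DMSO and 77.0 ± 2.24 CPM in WT DMSO. Its rise was 4.41 ± 0.12 in KO cells (adjusted p = 4.48e-14) and 3.87 ± 0.11 in WT cells (adjusted p = 2.84e-13), with an interaction of 0.53 ± 0.14 (adjusted p = 0.01). Its relative ZFP36L1 rose by 2.42 ± 0.16 in KO and 2.61 ± 0.16 in WT cells, from levels near 1 CPM under DMSO. The more abundant relative ZFP36L2 went the other way. It averaged 241 ± 7.33 CPM in KO CC-885, 298 ± 26.7 CPM in WT CC-885, 758 ± 34.5 CPM in KO DMSO and 668 ± 2.89 CPM in WT DMSO. Its interaction was -0.49 ± 0.09 (adjusted p = 0.000779). RC3H2, which binds stem-loop elements, rose by 2.18 ± 0.06 in KO and 1.72 ± 0.06 in WT cells. Between the genotypes under CC-885, TIAL1 (-0.87 ± 0.06) and the RNase ZC3H12A (-0.60 ± 0.11) were lower in KO cells, as they were under DMSO (-0.91 ± 0.06 for TIAL1 and -0.40 ± 0.11 for ZC3H12A).

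Promoters are shown for IL1B and TNF, which rose in both genotypes, and for IL1A and IL23A, which rose and hold motifs. Each runs from 250 bases before to 50 after the RefSeq start (GRCh38.p14), 5′ to 3′ on the strand named, with motif matches in capitals.
IL1B promoter, chr2:112836730-112837029, minus strand: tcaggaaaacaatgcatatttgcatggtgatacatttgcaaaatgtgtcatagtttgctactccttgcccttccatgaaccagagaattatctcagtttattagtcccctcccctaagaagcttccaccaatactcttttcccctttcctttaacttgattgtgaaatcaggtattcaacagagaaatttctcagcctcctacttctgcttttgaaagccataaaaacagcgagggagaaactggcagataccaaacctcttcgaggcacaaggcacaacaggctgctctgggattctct
IL1A promoter, chr2:112784444-112784743, minus strand: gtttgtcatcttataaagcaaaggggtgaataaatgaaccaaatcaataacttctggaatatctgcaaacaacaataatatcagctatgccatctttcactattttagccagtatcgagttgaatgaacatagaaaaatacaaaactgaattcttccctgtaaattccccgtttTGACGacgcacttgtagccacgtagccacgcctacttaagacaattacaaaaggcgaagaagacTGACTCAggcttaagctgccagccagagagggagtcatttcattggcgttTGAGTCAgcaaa
TNF promoter, chr6:31575315-31575614, plus strand: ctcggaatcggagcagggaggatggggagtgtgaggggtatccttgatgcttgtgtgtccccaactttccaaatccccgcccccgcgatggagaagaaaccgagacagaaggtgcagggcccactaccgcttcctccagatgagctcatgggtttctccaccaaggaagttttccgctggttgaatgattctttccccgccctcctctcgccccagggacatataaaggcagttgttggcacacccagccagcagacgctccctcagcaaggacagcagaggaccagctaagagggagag
IL23A promoter, chr12:56338634-56338933, plus strand: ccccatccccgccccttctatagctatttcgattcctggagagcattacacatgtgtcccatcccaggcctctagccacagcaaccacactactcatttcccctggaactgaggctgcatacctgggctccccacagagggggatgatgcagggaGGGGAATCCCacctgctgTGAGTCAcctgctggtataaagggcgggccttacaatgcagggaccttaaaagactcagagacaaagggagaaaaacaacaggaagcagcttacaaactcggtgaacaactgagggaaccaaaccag
The search covered both strands for an NF-kB site (kB), AP-1 (TGANTCA), a CRE-type site (TGACG) and an ATF4-C/EBP composite (TGATGNAA), and no matches overlapped in these promoters apart from the kB match of IL23A, which reads on both strands. Of 35116 RefSeq promoters of the same length, 11.27% held kB, 7.71% AP-1, 24.55% the CRE-type site and 3.62% the composite. Entries were matched for 7 of the 9 genes, all but IL18 and LIF. AP-1 was found in 4 of the 7, with its first base, counted from the first annotated start, at -12 and 39 in IL1A, -77 in IL23A, -118 in EBI3 and -223 in IL1RN. A gene was counted if any of its annotated starts held a match, whereas the shares above are per promoter. IL1A has 2 starts, both with AP-1, and IL1RN has 3, with AP-1 at the first only. The kB match stood at -95 in IL23A, -73 in IL6 and -214 in EBI3, and the CRE-type site at -76 in IL1A and at -215 and -162 in IL6. The windows of IL1B and TNF held none of these letters, which says nothing of more distant elements. A match is a description of the sequence and not of binding.

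**Figure D4:**
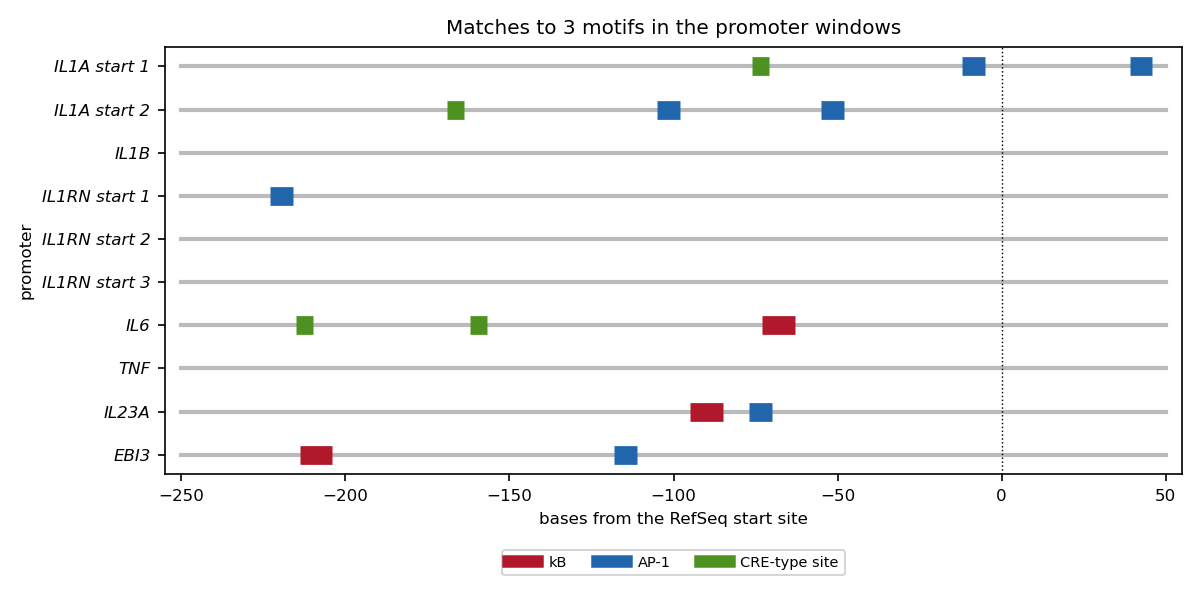
Matches to kB, AP-1 and the CRE-type site (coloured blocks) along the promoter windows of the 7 cytokine genes with a RefSeq entry, in bases from the start site (horizontal axis), with 1 row for each annotated start. IL1B and TNF hold no match, and IL23A holds kB at -95 and AP-1 at -77.

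The receptors, decoys and further ligands of the IL-1 family were scarce, with 5 of 15 passing the filter. Under CC-885 2 were called higher and 2 lower in KO cells, and 1 higher and 2 lower in WT cells, beside 38.9% and 40% of all genes in KO and 35.7% and 36.6% in WT cells. Without KO CC-885 replicate 2, 4 were called higher in KO cells, but the filter on low counts was run anew in that fit. The genes tested there are not the same 5 and their number is not given, so the counts cannot be compared. The co-receptor IL1RAP rose by 1.39 ± 0.09 in KO cells (adjusted p = 5.01e-10) and by 1.24 ± 0.09 in WT cells (adjusted p = 3.41e-09). The inhibitors IL18BP, which binds IL-18, and SIGIRR fell in KO cells (log2 changes -1.08 ± 0.12 and -0.74 ± 0.08) and in WT cells (-0.76 ± 0.12 and -0.33 ± 0.08). The signalling receptor IL1R1 averaged 6.22 ± 0.673 CPM in KO CC-885, 1.85 ± 0.253 CPM in WT CC-885, 4.53 ± 0.0535 CPM in KO DMSO and 1.66 ± 0.0750 CPM in WT DMSO. KO cells were higher by 1.75 ± 0.13 under CC-885 (adjusted p = 1.38e-08) and by 1.45 ± 0.13 under DMSO (adjusted p = 2.11e-07).

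Genes of the inflammasome and of pro-IL-1 processing moved both ways under CC-885. Of 15 tested, 6 were called higher and 6 lower in KO cells, and 9 higher and 4 lower in WT cells, beside 38.9% higher and 40% lower of all genes in KO and 35.7% and 36.6% in WT cells. The list medians were -4e-04 in KO and 0.43 in WT cells. Under CC-885 11 of the 15 were called lower in KO than in WT cells and 2 higher, beside 30.8% lower and 27.8% higher of all genes, with a median of -0.42 beside -0.02 for all genes. The interaction was called lower for 6, beside 16.8% of all genes. CASP5 passed the filter through WT CC-885, where it is high, and is named for that reason. It had 79 reads in WT CC-885, 12 in KO CC-885, 8 in KO DMSO and 11 in WT DMSO. The counts and medians of this list include it and are no support by themselves. PYCARD, the adaptor that joins sensors to caspase-1, averaged 27.4 ± 1.503 CPM in KO CC-885, 45.7 ± 2.03 CPM in WT CC-885, 181 ± 11.4 CPM in KO DMSO and 176 ± 14.5 CPM in WT DMSO. It fell in both genotypes (-2.73 ± 0.08 in KO and -1.95 ± 0.07 in WT cells) and by more in KO cells (interaction -0.78 ± 0.10, adjusted p = 3.36e-05).

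P2RX7, the ATP-gated channel that triggers the NLRP3 inflammasome, averaged 1.86 ± 0.170 CPM in KO CC-885, 13.6 ± 1.01 CPM in WT CC-885, 0.987 ± 0.0632 CPM in KO DMSO and 4.10 ± 0.573 CPM in WT DMSO. KO cells were lower under CC-885 (log2 change -2.87 ± 0.13, adjusted p = 6.43e-11) and under DMSO (-2.06 ± 0.14, adjusted p = 8.82e-09). GSDMD, the pore-forming protein through which mature IL-1β leaves cells, was lower in KO cells under CC-885 (-0.78 ± 0.09), with no call under DMSO (3e-04 ± 0.09). The sensors NLRP1 and NLRP12 rose under CC-885, by 1.97 ± 0.13 and 1.95 ± 0.11 in KO cells and by 2.57 ± 0.15 and 2.34 ± 0.11 in WT cells. NLRP3 and CASP1 were added after their values were seen. NLRP3 fell in both genotypes (-0.86 ± 0.07 in KO and -0.72 ± 0.07 in WT cells), and CASP1, which cuts pro-IL-1β and pro-IL-18, fell in KO cells (-0.40 ± 0.08, adjusted p = 0.00028) and gave no call in WT cells (-0.13 ± 0.08, adjusted p = 0.145).

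Receptors, shedding factors and signalling proteins of TNF had 18 tested members. Of these, 9 were called higher and 6 lower under CC-885 in KO cells, 9 higher and 7 lower in WT cells, and 6 higher and 6 lower in KO against WT cells under CC-885. Of all genes, 38.9% were higher and 40% lower in KO cells, 35.7% and 36.6% in WT cells, and 27.8% and 30.8% between the genotypes under CC-885, so several of these counts are near the share of all genes. The feedback inhibitor TNFAIP3 (A20) averaged 82.1 ± 1.19 CPM in KO CC-885, 64.2 ± 3.69 CPM in WT CC-885, 12.2 ± 1.05 CPM in KO DMSO and 9.59 ± 1.24 CPM in WT DMSO, a rise of 2.75 ± 0.09 in KO and 2.74 ± 0.09 in WT cells. The deubiquitinase CYLD rose by 2.16 ± 0.09 in KO and 1.77 ± 0.09 in WT cells. RHBDF2, which brings the TNF sheddase to the cell surface, fell in both genotypes (-1.82 ± 0.09 in KO and -1.37 ± 0.09 in WT cells), and the ubiquitin ligase BIRC3 rose in both (1.55 ± 0.25 in KO and 2.15 ± 0.24 in WT cells). The second TNF receptor TNFRSF1B averaged 78.6 ± 3.50 CPM in KO CC-885, 31.6 ± 3.24 CPM in WT CC-885, 95.5 ± 4.66 CPM in KO DMSO and 74.9 ± 2.98 CPM in WT DMSO. It was higher in KO cells under CC-885 by 1.31 ± 0.07 (adjusted p = 8.26e-10), with an interaction of 0.96 ± 0.10 (adjusted p = 7.05e-06), while TNF itself was lower there.

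Receptors, partners and feedback genes of the gp130 and IL-12 families had 20 tested members, of which 12 were called higher and 4 lower under CC-885 in each genotype, beside 38.9% higher and 40% lower of all genes in KO and 35.7% and 36.6% in WT cells. The list median was 0.72 in KO and 0.72 in WT cells beside -0.03 for all genes in each. Of the 20, 3 (IL12B, LIFR and OSMR, listed here for that reason) had at least 10 counts in fewer than 3 DMSO libraries. They passed the filter through WT CC-885, where they are highest. The count of higher genes and the list median are therefore no support by themselves. OSM, a gp130 cytokine related to LIF, averaged 12.9 ± 0.354 CPM in KO CC-885, 10.48 ± 0.160 CPM in WT CC-885, 2.41 ± 0.391 CPM in KO DMSO and 2.64 ± 0.337 CPM in WT DMSO. It rose by 2.43 ± 0.12 in KO and 1.99 ± 0.12 in WT cells, and the feedback inhibitor SOCS1 by 1.92 ± 0.19 in KO and 2.28 ± 0.19 in WT cells. IL6R fell in both (-1.68 ± 0.07 in KO and -1.55 ± 0.07 in WT cells). The IL-12 receptor chain IL12RB2 averaged 88.5 ± 1.83 CPM in KO CC-885, 30.0 ± 0.605 CPM in WT CC-885, 61.1 ± 5.73 CPM in KO DMSO and 23.0 ± 0.618 CPM in WT DMSO. KO cells were higher under both treatments (1.56 ± 0.07 under CC-885 and 1.41 ± 0.07 under DMSO).

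Other secreted cytokines, chemokines left out, had 19 tested genes of 34 listed. Under CC-885 10 were called higher and 6 lower in KO cells and 10 higher and 5 lower in WT cells, beside the same 38.9% and 40% of all genes in KO and 35.7% and 36.6% in WT cells. Of the 19, 5 (AREG, IFNB1, IL19, IL24 and LTA, listed here for that reason) had at least 10 counts in fewer than 3 DMSO libraries and passed the filter through the CC-885 groups, where they are high, so the count of higher genes is no support by itself and no median is given. With only genes of at least 1 CPM in 3 libraries kept, 6 were called higher in each. That filter too kept AREG and GDF15 through the CC-885 groups alone, so this count is no support by itself either. The epidermal growth factor receptor ligands HBEGF and AREG rose by 4.96 ± 0.10 and 5.13 ± 0.21 in KO cells and by 3.65 ± 0.10 and 5.24 ± 0.22 in WT cells. AREG had 652 reads in KO CC-885, 698 in WT CC-885, 19 in KO DMSO and 18 in WT DMSO. Because the filter kept AREG through the CC-885 groups, its rise is no support by itself. GDF15, a stress-induced ligand, averaged 2.65 ± 0.486 CPM in KO CC-885, 10.9 ± 0.994 CPM in WT CC-885, 0.314 ± 0.0665 CPM in KO DMSO and 0.265 ± 0.0263 CPM in WT DMSO. It rose by 3.08 ± 0.20 in KO and 5.36 ± 0.19 in WT cells, with an interaction of -2.28 ± 0.32 (adjusted p = 7.54e-05).

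**Figure D5:**
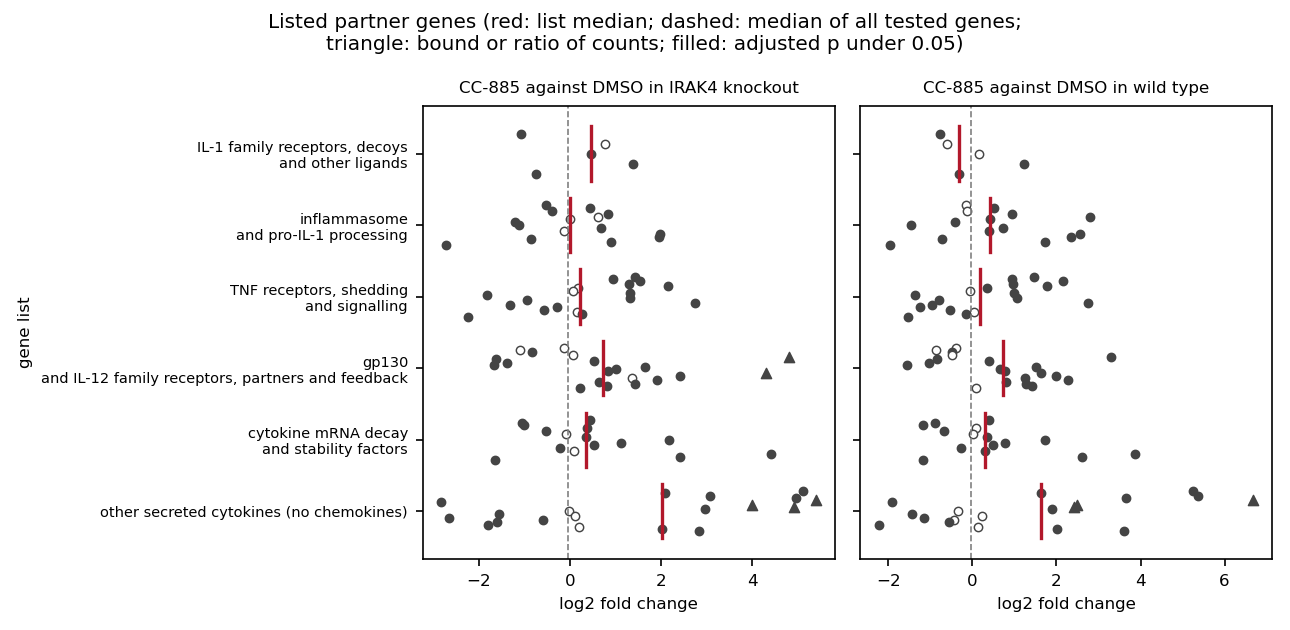
Log2 change under CC-885 (horizontal axis) of every tested gene of 6 lists in KO (left) and WT cells (right), with filled points at an adjusted p under 0.05, triangles for bounds or ratios of counts, the list median in red and the median of all genes dashed at -0.03. ZFP36 lies highest in its list, at 4.41 in KO and 3.87 in WT cells, and 5 of the 19 other secreted cytokines had at least 10 counts in fewer than 3 DMSO libraries. The red medians of that list, the inflammasome list and the gp130 and IL-12 list include genes that passed the filter through CC-885 libraries. They are no support by themselves.

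The genes with patterns most like each cytokine were ranked by Pearson's r of log2 CPM over the 12 libraries, among 13669 genes. The libraries fall into 4 groups, so r mainly follows the group means, and r within groups is given beside it as a description. For IL1B they were ZSWIM6 (r = 0.999, within groups 0.267), NFAT5 (0.999, within groups 0.660) and SENP2 (0.998, within groups 0.454). For IL23A they were the immediate early genes FOS (0.992, within groups 0.652) and IER2 (0.990, within groups 0.432) and NRIP3 (0.991, within groups 0.521). For IL18 they were SLC38A2 (0.989, within groups 0.386) and the interferon-induced genes IFIT3 (0.988, within groups 0.693) and IFI16 (0.983, within groups 0.482).

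For TNF the ranking gave PPP2R2D (0.989, within groups 0.882), MCU (0.989, within groups 0.211) and SEC61A2 (0.987, within groups 0.740). For LIF it gave NSMF (0.987, within groups 0.0969), DRG2 (0.984, within groups 0.647) and ZNF202 (0.984, within groups 0.411). For IL1A it gave ARG2 (0.993, within groups 0.747), NFKBIL1 (0.992, within groups 0.7551) and C8orf76 (0.990, within groups 0.932). Likeness was lower for IL1RN, with TLCD2 (0.953, within groups 0.622), LOXL4 (0.949, within groups 0.5195) and UBOX5 (0.946, within groups 0.620). It was also lower for EBI3, with PRKCDBP (0.939, within groups 0.623), ATP9A (0.934, within groups 0.611) and CD52 (0.932, within groups 0.589). Among the cytokine genes themselves, IL1B had r = 0.968 with IL1A, 0.937 with IL23A, 0.875 with LIF, 0.716 with TNF and -0.196 with IL1RN over the same libraries. No r within groups is given for these pairs.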

How the data were processed

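PolyA RNA of 12 libraries was sequenced as paired-end reads from TruSeq libraries, per the labels' protocols. The authors deposited raw counts per gene symbol without normalization. The submitters' processing notes name featureCounts 1.5.2, HISAT2 2.0.5 and FastQC 0.11.2 with GRCh38, but the labels' extraction protocol names the mouse build mm10. The symbols are human. The strand setting is not given in the sources used here, and 0 per-sample columns were left out. The cell line tag counts upward from sample to sample, and the titles name THP-1 throughout.

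Genes were filtered by edgeR's filterByExpr, which left 16010 of 30017 symbols (53.3%), and 7380 symbols had no count. A quasi-likelihood model (edgeR 4.0.16, R 4.3.3, TMM factors, 1 coefficient for each of 4 groups, no covariate) gave 5 contrasts, with Benjamini-Hochberg adjustment over all genes tested. The biological coefficient of variation was 0.0899. Changes are log2 fold changes ± SE, relative to the bulk of genes and not per cell. The procedure was tested on simulated data. Alternatives were DESeq2 1.42.0, other scalings and filters, replicate blocks, the library-name prefix, and leaving out each library. Title numbers were not taken to pair the libraries.

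The cytokine genes and the lists were chosen with earlier results of these data known. Named genes are the 9 cytokine genes, IRAK4, the 3 called genes of a list with the largest change and at least 1 CPM in the higher group, and the 3 genes most alike to each cytokine gene. IL12B, IL6ST and the marker genes were named beside them after their values were seen. UTRs and positions come from GENCODE on GRCh38, promoters from RefSeq on GRCh38.p14. Intervals and floors cover counting error only.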

Additional observations from a re-analysis of the deposited data

Results flagged for a closer look

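The response to CC-885 differed between IRAK4 KO and WT cells in 5 of the 7 cytokine genes for which the difference could be tested (edgeR interaction, KO response minus WT response on the log2 scale). It was 4.0805 for LIF, 1.8376 for TNF and 0.9449 for IL1B, larger in KO cells, and -0.6784 for IL18 and -0.3054 for IL1RN, smaller in KO cells. Of all genes tested, 17.9% had a higher and 16.8% a lower interaction call. The IL1RN call was lost in 9 of 22 alternatives and the IL1B call in 1. The LIF, TNF and IL18 values kept their calls in all 22 alternatives of each. The causes of these differences were not tested.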

How the results depend on the processing

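Of 862 values of the cytokine genes under alternatives, 826 kept their direction and side of the threshold, 31 lost the call, 1 gained it and 4 changed sign, and the causes were not tested. The sign changed for values that were not called: IL1RN in WT cells with upper-quartile factors (-0.0029), EBI3 in WT cells (-0.3431 to 0.1399 without single libraries), IL1A between the genotypes under CC-885 (-0.1719 to 0.3712 without single libraries) and the EBI3 interaction with only libraries of the 51 prefix (0.2031). The log2 ratio of IL1RN to IL1B between the genotypes under DMSO was -0.342 to 8e-04 without single libraries, and that of IL1RN to IL1A under CC-885 was -0.3874 to 0.2808. With the 51 prefix alone, which leaves 1 library in WT DMSO that is assumed to vary like the other groups, 1 cytokine gene was called higher in KO cells under DMSO. In the interaction 1 was called lower with that prefix alone, 1 with the replicate block by the number in the library name, and 1 to 2 without single libraries. With the replicate block by library-name number the IL18 response in KO cells was 0.2309 (adjusted p = 0.0662), the KO difference under DMSO for IL1B 0.4725 (0.102), that under CC-885 for EBI3 1.0436 (0.0582) and the IL1RN interaction -0.3263 (0.0685), and none of these was called, while the block by title number changed no call. Same-numbered libraries correlated by -0.1186 to 0.3011 over title and library-name numbers. Depth limits IL6, IL1A under DMSO and EBI3 to a few reads.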
